A study of Homo sapiens with 14 samples.

Results

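The 39 protein-coding HOX genes of the human genome were taken as the rows whose identifiers carry a protein-coding symbol made of HOX, a cluster letter from A to D and a number, 39 of the 58219 genes in the count table. The study sequenced total RNA from OVCAR4, an established line of high-grade serous ovarian cancer, after siRNA pools against transcription factors, in 7 groups of 2 libraries. The 5 knockdown groups received Dharmacon pools against PAX8 (siPAX8), SOX17 (siSOX17), both (siDual), MECOM (siMECOM) or WT1 (siWT1). The 2 control groups received the ON-TARGETplus non-targeting pool (siNT1) or a custom non-targeting pool (siNT2). All 7 groups shared the dose of 120 nM siRNA on 300000 cells, a change of medium at 24 h and harvest at 72 h, and cells within 12 passages of a check of identity. The labels leave unsaid how the dose was divided in siDual and whether the paired libraries are separate cultures or technical repeats, and p-values measure only the spread between these libraries. One cell line was used, so nothing here speaks of other ovarian cancers.

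HOX genes encode homeodomain transcription factors that give cells their position along the head to tail axis. In each cluster the order of the genes along the chromosome follows the order of the body regions in which they act, so low numbers are called anterior and high numbers posterior, and genes with the same number in different clusters are paralogs. HOX proteins bind DNA together with PBX and MEIS partners, Polycomb proteins keep the clusters silent where they are not used, Trithorax proteins keep them active, and retinoic acid switches on the anterior genes. In the Müllerian ducts of the mouse, from which the female reproductive tract forms, Hoxa9 marks the future oviduct, Hoxa10 and Hoxa11 the uterus, and Hoxa13 the upper vagina. PAX8 and SOX17 are transcription factors of Müllerian epithelium and of serous ovarian cancer, MECOM is a zinc finger factor amplified in some ovarian cancers, and WT1 is a zinc finger factor used to diagnose serous tumours.

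The libraries held 41107918 to 49803860 counts in the knockdowns and 40832825 to 49059114 in the controls, with 27628 to 29311 genes counted in each. PAX8 had 32.8 to 38.3 CPM (read counts scaled to the library total, with TMM factors) with siPAX8 and 50.6 to 52.8 with siDual, against 192 to 225 in the controls. SOX17 had 13.1 to 15.7 CPM with siSOX17 and 15.9 to 17.7 with siDual, against 104 to 119 in the controls. MECOM had 8.76 to 16.4 CPM with siMECOM, against 125 to 133 in the controls. WT1 itself was near the detection limit before any knockdown, with 1 count in the siWT1 libraries together and 75 counts in the 4 control libraries together. Of 12 markers of serous and Müllerian epithelium, 9 reached 1 CPM in the controls, while MSLN, ESR1 and WT1 did not. The 12 summed to 3847 to 20809 CPM in knockdowns and 4165 to 4977 CPM in controls. The summed fibroblast markers lay between 25.2 and 83.3 CPM in knockdowns and 34.8 and 45.2 CPM in controls, with only COL1A1 of the 5 at 1 CPM or more. The 5 leukocyte markers summed to 0.398 to 0.925 CPM in knockdowns and 0.701 to 1.06 CPM in controls, where 0 reached 1 CPM. The 4 endothelial markers summed to 6.31 to 20.8 CPM in knockdowns and 8.44 to 10.5 CPM in controls, where PECAM1, VWF and CDH5 reached 1 CPM. No marker of these lists was at 0 in all libraries. The part of these marker levels in the results below was not tested. Mitochondrial genes took 7.91% to 11.0% of the counts in knockdowns, against 5.34% to 6.13% in controls, so this share moved with every comparison against the controls below, and its part in the results was not tested.

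The upstream 250 bases of 3 HOXA genes are printed because HOXA2 and HOXA9 were lower than in the controls with the PAX8 and SOX17 pools while HOXA13, at the far end of the same cluster, was higher with siSOX17 and siDual. The sequences are RefSeq's, of GRCh38.p14, on the minus strand and ending at the base before the start annotated by RefSeq: chr7:27102684-27102933 for HOXA2, chr7:27165538-27165787 for HOXA9 and chr7:27200092-27200341 for HOXA13. These starts differ from those of the counted genes. The HOXA9 window lies inside the counted HOXA9 span (chr7:27162435-27175180). The windows of HOXA2 and HOXA13 partly overlap the counted spans (chr7:27100354-27102811 and chr7:27193503-27200106). All marked words lie inside the counted spans. Capitals mark matches on either strand to a SOX core (ACAAT), to a PAX paired-domain core in 2 spellings (GTCACGC, and as the other spelling GTCATGC), to a GATA-like word of EVI1, the protein of MECOM (GATAAG), and to a WT1 and EGR word (GCGTGGG).
HOXA2: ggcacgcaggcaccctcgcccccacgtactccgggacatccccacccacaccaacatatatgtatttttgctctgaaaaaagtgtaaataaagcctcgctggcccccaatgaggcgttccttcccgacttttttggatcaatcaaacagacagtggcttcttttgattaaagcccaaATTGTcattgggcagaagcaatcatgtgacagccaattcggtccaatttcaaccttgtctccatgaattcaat
HOXA9: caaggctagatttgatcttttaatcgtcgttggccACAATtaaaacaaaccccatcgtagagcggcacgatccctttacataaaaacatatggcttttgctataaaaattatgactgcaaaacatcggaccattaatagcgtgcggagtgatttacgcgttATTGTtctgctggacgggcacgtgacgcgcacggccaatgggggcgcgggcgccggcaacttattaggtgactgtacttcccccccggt
HOXA13: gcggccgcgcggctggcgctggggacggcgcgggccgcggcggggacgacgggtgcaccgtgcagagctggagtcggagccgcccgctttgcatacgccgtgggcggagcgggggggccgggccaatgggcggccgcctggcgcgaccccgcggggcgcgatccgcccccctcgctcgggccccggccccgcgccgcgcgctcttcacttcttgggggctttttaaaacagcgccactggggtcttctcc

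The marked word in HOXA2 and both marked words in HOXA9 are the SOX core, and none of the 4 kinds of word is in the HOXA13 window. Elsewhere in the cluster, the SOX core was in 0 of the windows of HOXA6, HOXA10 and HOXA11, which were called lower with siSOX17. It was in 3 of the 7 windows of HOXA3, which was not called with siSOX17. The part of these words in the calls was not tested. The RefSeq table matched 20 of the 39 HOX genes, with 27 promoters. Among those without an entry were HOXA5, HOXB2, HOXB3, HOXB4, HOXB5, HOXB6, HOXB7, HOXB8, HOXB9, HOXB13, HOXC6, HOXC8, HOXC9, HOXC10, HOXC11, HOXC12, HOXC13 and HOXD9. The SOX core was in 8 of the 27 HOX promoters (29.6%), against 24.6% of all 35116 promoters. Of these 8, 3 are windows of HOXA3, and HOXC4 and HOXC5 have the same window, which was counted for both. The PAX core was in 1 of the 27 (3.70%), against 3.59% of all. The EVI1 word was in 3 (11.1%), against 5.65%, and the WT1 and EGR word in 2 (7.41%), against 6.19%. Words bound by HOX proteins with their partners were also counted: TGATNNAT, a PBX and HOX word, was in 3 HOX promoters (11.1%) against 6.47% of all, and TGACAG, a MEIS word, in 2 (7.41%) against 13.0%. A TATA box (TATAAA) was in 5 HOX promoters (18.5%), against 10.7% of all. None of these words contains another, both strands were searched, and a match is a run of letters and not a bound site. HOX promoters held a median of 19.0 CpG dinucleotides at 58.8% GC, against 11.0 at 58.0% GC in all promoters.

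HOXA, HOXB and HOXC were expressed and HOXD was silent. In the controls the summed level was 47.7 ± 1.42 CPM for HOXA (11 genes, on chromosome 7), 85.8 ± 4.43 CPM for HOXB (10 genes, chr17:48528526-48729178) and 17.6 ± 0.639 CPM for HOXC (9 genes, chr12:53938765-54056030), all in hg38 and as SD over 4 libraries. HOXD (9 genes, chr2:176092891-176190907) summed to between 0 and 3 counts in each of the 14 libraries. A filter on low counts passed 28 of the 39 genes, 11 of HOXA, 9 of HOXB, 8 of HOXC and 0 of HOXD. The 11 that did not pass were HOXB1, HOXC12 and the 9 HOXD genes, and no single library held more than 3 counts of any of them. HOXD9, which acts in limb and trunk patterning, had the highest total of HOXD: 1 count with siSOX17 replicate 1, 1 with siDual replicate 2, 3 with siWT1 replicate 1 and 0 in the other knockdown libraries, against 0 in all 4 controls. A count of 0 allows up to 3 counts, counting error alone, so no difference in HOXD was detectable at this depth.

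Per kilobase of gene length (TPM), the most abundant HOX genes in the controls were central and posterior genes and HOXB2, while HOXB3, HOXA3 and HOXA2 lay lower in the order. HOXB9 stood at 19.3 ± 2.68, HOXB2 at 18.0 ± 0.895 and HOXB7 at 16.6 ± 1.29 TPM in the controls (SD, n = 4), and these 3 did not differ beyond their spread. HOXB8 (11.7 TPM) followed after a step larger than the summed SDs, and the steps from it to HOXA10 (11.0), HOXC10 (9.35) and HOXB4 (8.30) were each within the summed SDs. HOXA9, the oviduct gene of the mouse, stood apart from both neighbours in the order at 5.80 ± 0.323 TPM. HOXA7, HOXA5 and HOXA4 lay between 4.54 and 4.89 TPM, and the 6 genes from HOXB13 (3.80 TPM) to HOXC6 (2.44 TPM) followed with no step beyond the spread. Another 7 genes lay between 1.04 and 1.77 TPM, HOXA13 stood at 0.781 ± 0.120, and HOXC5 (0.351) and HOXC11 (0.215) were lowest. Of the paralogs numbered 10, HOXA10 and HOXC10 differed by less than their summed SDs, whereas HOXD10 had 1 count in all libraries.

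**Figure D1:**
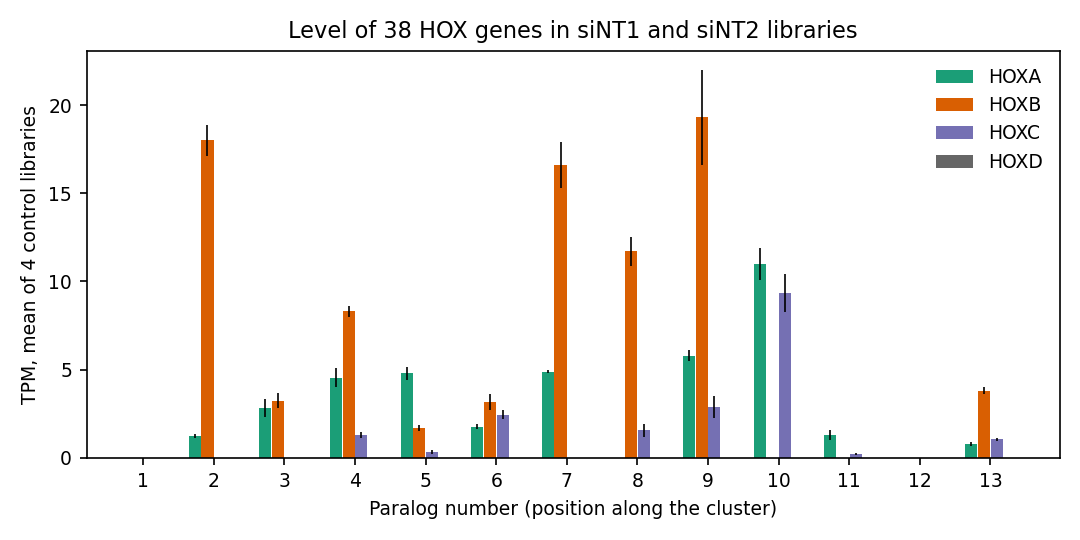
Level of 38 HOX genes in the 4 control libraries (TPM, bars are means and lines are SD), by paralog number along the cluster from anterior to posterior. HOXB9, HOXB2 and HOXB7 are highest at 16.6 to 19.3 TPM, and no HOXD bar rises above the axis.

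The comparison of each knockdown with the mean of siNT1 and siNT2 asks which HOX genes differed in level with each siRNA pool. Off-target matches of the pools were not tested. WT1 was near the detection limit in the controls, and whether the siWT1 calls follow from loss of WT1 was not tested. All 5 comparisons share the 4 control libraries, so their directions are not independent of each other. With siPAX8, 2 of the 28 genes that passed the filter were higher and 13 lower (edgeR quasi-likelihood test, Benjamini-Hochberg adjusted p under 0.05 over 21032 genes), where 26.9% of all genes tested were higher and 25.4% lower. With siSOX17, 3 were higher and 17 lower, against 27.2% higher and 25.5% lower among all genes. With siDual, 5 were higher and 16 lower, against 28.9% higher and 27.3% lower among all genes. As shares, the HOX genes called lower were 46.4%, 60.7% and 57.1% of the 28, above the background in each of these 3 comparisons, and the shares called higher were below it.

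With siMECOM, 4 HOX genes were higher and 3 lower, against 16.5% higher and 16.1% lower among all genes. With siWT1, 6 were higher and 6 lower, against 17.7% higher and 19.8% lower among all genes. The siMECOM and siWT1 shares (14.3% higher and 10.7% lower, 21.4% higher and 21.4% lower) were within a few points of the background, so their counts say nothing particular about HOX genes. Between siNT1 and siNT2, edgeR called 0 HOX genes higher and 0 lower, where 0.242% of all genes were higher and 0.0571% lower. At an unadjusted p under 0.05 that comparison held 1 HOX gene by edgeR and 1 by DESeq2. The median log2 fold change over the 28 genes was -0.41 with siPAX8, -0.46 with siSOX17, -0.54 with siDual, 0.01 with siMECOM and -0.09 with siWT1, while the median over all genes tested lay between -0.01 and 0.01 in each. In these bulk samples, less RNA per cell and fewer cells with the RNA cannot be told apart. Some counts rested on 1 library. Without siPAX8 replicate 2, 6 HOX genes were lower in place of 13, and without siDual replicate 2, 8 were lower in place of 16. Without siMECOM replicate 2, 1 was lower in place of 3. Without siWT1 replicate 2, 3 were higher in place of 6, and without either siWT1 library 3 were lower in place of 6.

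**Figure D2:**
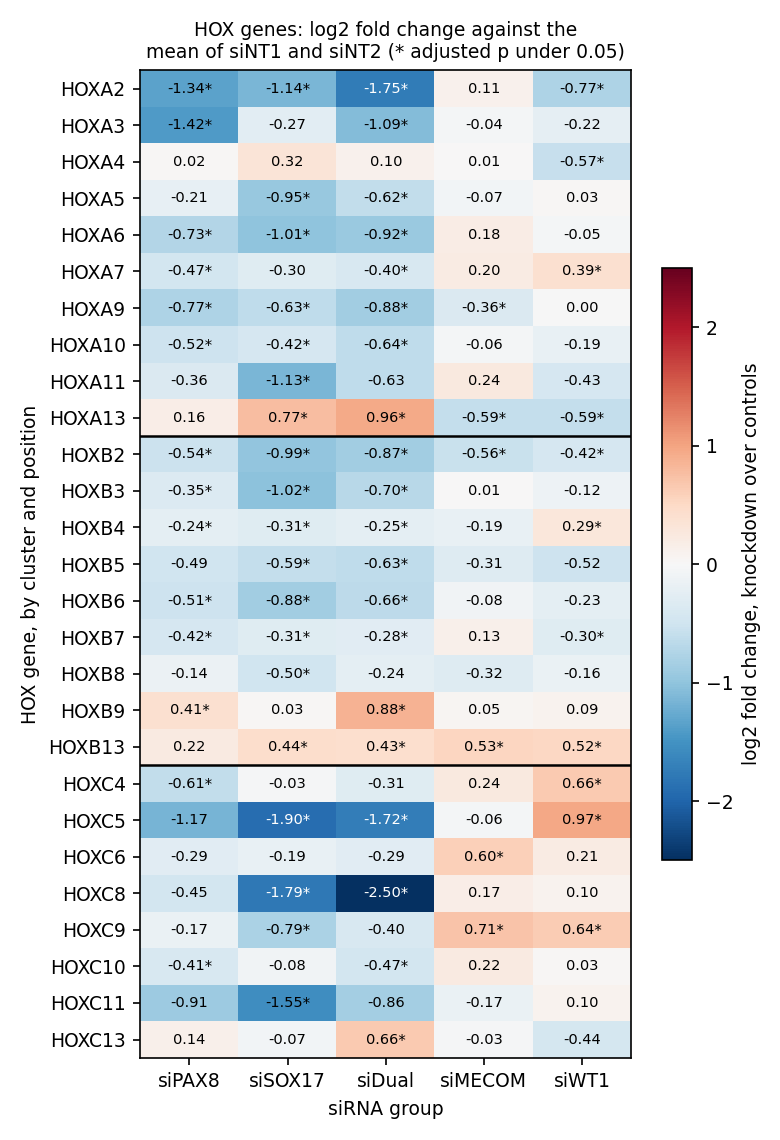
Log2 fold change of 27 HOX genes that passed the filter in each knockdown (columns) against the mean of the control groups, ordered by cluster and from anterior to posterior; stars mark an edgeR adjusted p under 0.05. Blue dominates the siPAX8, siSOX17 and siDual columns between HOXA2 and HOXA11 and between HOXB2 and HOXB8, while HOXA13, HOXB9 and HOXB13 are red there or near 0.

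In HOXA, the interior of the cluster was lower with the PAX8 and SOX17 pools while HOXA13, at its posterior end, was higher with siSOX17 and siDual. Of the 9 genes from HOXA2 to HOXA11, 6 were lower with siPAX8, 6 with siSOX17 and 7 with siDual, and 0 were higher. With siMECOM 1 was lower and 0 higher, and with siWT1 2 were lower and 1 higher. The shares called lower with siPAX8, siSOX17 and siDual were 66.7%, 66.7% and 77.8%, against 25.4%, 25.5% and 27.3% of all genes. With siMECOM and siWT1 they were 11.1% and 22.2%, near the 16.1% and 19.8% of all genes. Summed over the cluster, HOXA had 36.9 ± 1.42 CPM with siPAX8, 43.9 ± 0.816 with siSOX17, 37.1 ± 0.633 with siDual, 50.3 ± 2.45 with siMECOM and 42.6 ± 3.64 with siWT1 (SD, n = 2 each), against 47.7 ± 1.42 in the controls (n = 4).

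HOXA2 (ENSG00000105996.6, chr7:27100354-27102811), which sets the identity of the branchial arches, was lower in 4 knockdowns. Its values were 0.425 and 0.490 CPM with siPAX8, 0.622 and 0.424 with siSOX17, 0.346 and 0.338 with siDual, 1.30 and 1.21 with siMECOM, and 0.724 and 0.632 with siWT1, against 1.2 and 0.977 with siNT1 and 1.18 and 1.30 with siNT2. All libraries of siPAX8, siSOX17, siDual and siWT1 lay below every control, and those of siMECOM overlapped the controls. The fold change was 2.53-fold lower with siPAX8 (edgeR adjusted p = 1.22e-04), 2.20-fold lower with siSOX17 (6.58e-04), 3.38-fold lower with siDual (1.38e-05) and 1.71-fold lower with siWT1 (0.00910). The siWT1 call was lost without siWT1 replicate 2 (adjusted p = 0.0830). Its counts were 13 to 62 per library, and no annotated exon of another gene overlaps it.

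HOXA3 (ENSG00000105997.22, chr7:27106184-27152581), needed for the thymus and parathyroid, followed the PAX8 pool. It had 1.53 and 1.94 CPM with siPAX8, 3.66 and 4.09 with siSOX17, 2.37 and 2.03 with siDual, 3.83 and 5.16 with siMECOM, and 3.33 and 4.67 with siWT1, against 5.56 and 4.75 with siNT1 and 4.67 and 3.72 with siNT2. The siPAX8 and siDual libraries lay below every other library, and those of siSOX17, siMECOM and siWT1 overlapped the controls. It fell 2.68-fold with siPAX8 (log2 fold change -1.42, SE 0.19, edgeR adjusted p = 3.25e-06) and 2.12-fold with siDual (-1.09, SE 0.18, 5.37e-05), calls kept in every setting. With siSOX17 the log2 fold change was -0.27 (SE 0.17, adjusted p = 0.205), and siPAX8 against siSOX17 differed by -1.16 (SE 0.22, adjusted p = 2.87e-04). Exons of other genes cover 17.9% of those of HOXA3.

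Among the Müllerian genes, HOXA9 (ENSG00000078399.17, chr7:27162435-27175180) had 4.20 and 3.74 CPM with siPAX8, 4.55 and 4.24 with siSOX17, 3.78 and 3.65 with siDual, 5.77 and 4.83 with siMECOM, and 6.19 and 7.39 with siWT1, against 7.31 and 6.59 with siNT1 and 6.61 and 6.73 with siNT2. The siPAX8, siSOX17, siDual and siMECOM libraries lay below every control, and the siWT1 libraries overlapped them. It fell 1.71-fold with siPAX8, 1.55-fold with siSOX17 and 1.83-fold with siDual (edgeR adjusted p = 2.81e-05, 2.76e-04 and 7.80e-06), and 1.29-fold with siMECOM (0.0234, but 0.311 without siMECOM replicate 2 and 0.0675 without siNT1 replicate 1). HOXA10 (ENSG00000253293.4, chr7:27170591-27180261), the most abundant HOXA gene, had 11.7 and 10.3 CPM with siPAX8, 12.5 and 11.1 with siSOX17, 10.2 and 10.1 with siDual, 15.9 and 14.6 with siMECOM, and 13.2 and 14.6 with siWT1, against 15.9 and 17.3 with siNT1 and 14.7 and 15.5 with siNT2. The siPAX8, siSOX17, siDual and siWT1 libraries lay below every control, and those of siMECOM overlapped them. It fell 1.43-fold with siPAX8, 1.34-fold with siSOX17 and 1.56-fold with siDual (adjusted p = 1.17e-04, 9.15e-04 and 1.32e-05), and its siWT1 difference was not past the threshold (0.114). HOXA11, on 20 to 77 counts per library, fell 2.19-fold with siSOX17 (adjusted p = 0.00322). Its log2 fold change was -0.36 with siPAX8 and -0.63 with siDual, neither past the threshold.

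HOXA13 (ENSG00000106031.7, chr7:27193503-27200106), the gene of the hindgut, genital tract and distal limb, went against the interior of its cluster. It had 1.59 and 1.87 CPM with siPAX8, 2.74 and 2.55 with siSOX17, 2.32 and 3.65 with siDual, 0.991 and 1.05 with siMECOM, and 0.972 and 1.07 with siWT1, against 1.23 and 1.76 with siNT1 and 1.48 and 1.69 with siNT2. The siSOX17 and siDual libraries lay above every control, those of siMECOM and siWT1 below every control, and those of siPAX8 overlapped. It rose 1.71-fold with siSOX17 (log2 fold change 0.77, SE 0.20, edgeR adjusted p = 0.00253) and 1.94-fold with siDual (0.96, SE 0.19, 2.65e-04), calls kept in every setting. It was 1.51-fold lower with siMECOM (adjusted p = 0.0457) and 1.51-fold lower with siWT1 (0.0377). Both of those calls were lost in DESeq2 (adjusted p = 0.0669 and 0.0660) and in leave-one-out fits, the siMECOM call without siMECOM replicate 1 (0.180) or 2 (0.153), siNT1 replicate 2 (0.168), siNT2 replicate 2 (0.0772) or siWT1 replicate 1 (0.050). The siWT1 call was lost without siWT1 replicate 1 (0.189) or 2 (0.0967), siNT1 replicate 2 (0.151) or siNT2 replicate 2 (0.0890). The tests between knockdowns were past the threshold, with HOXA13 2.58-fold lower with siMECOM than with siSOX17 (1.08e-04) and 2.58-fold lower with siWT1 than with siSOX17 (6.87e-05).

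The other HOXA genes were central. HOXA4 was 1.48-fold lower with siWT1 (edgeR adjusted p = 0.00385) and was not called elsewhere, with log2 fold changes between 0.01 and 0.32. HOXA5, which shapes the lung and the cervical spine, fell 1.94-fold with siSOX17 (9.22e-05) and 1.53-fold with siDual (0.00289). HOXA6 fell 1.65-fold with siPAX8 (0.020), 2.02-fold with siSOX17 (0.00396) and 1.89-fold with siDual (0.00584), on 15 to 54 counts per library. DESeq2 did not call HOXA6 with siPAX8 (adjusted p = 0.0832). Each HOXA6 call was lost without the second replicate of its own group (adjusted p = 0.174, 0.0508 and 0.0987), and that with siPAX8 also without siNT1 replicate 2 (0.0594). HOXA7 fell 1.38-fold with siPAX8 (0.00622) and 1.32-fold with siDual (0.0166) and rose 1.31-fold with siWT1 (0.0160). The HOXA7 calls were lost without siPAX8 replicate 2 (0.0938), without siDual replicate 1 (0.0612) or 2 (0.0990), and without siWT1 replicate 1 (0.0966) or 2 (0.0577).

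Antisense transcripts limit what the HOXA counts separate, since the strand setting of the counting is not given in the sources used here. HOXA-AS3 overlaps 62.5% of the exon bases of HOXA7, and the ratio of its count to that of HOXA7 lay between 0.893 and 1.15 in the 14 libraries. HOXA10-AS overlaps 16.4% of the exon bases of HOXA10, at a count ratio of 0.916 to 1.10. Exons of other genes cover 47.3% of HOXA4, 40.1% of HOXA6, 30.6% of HOXA11 and 27.0% of HOXA9, whereas HOXA2, HOXA5 and HOXA13 share none.

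**Figure D3:**
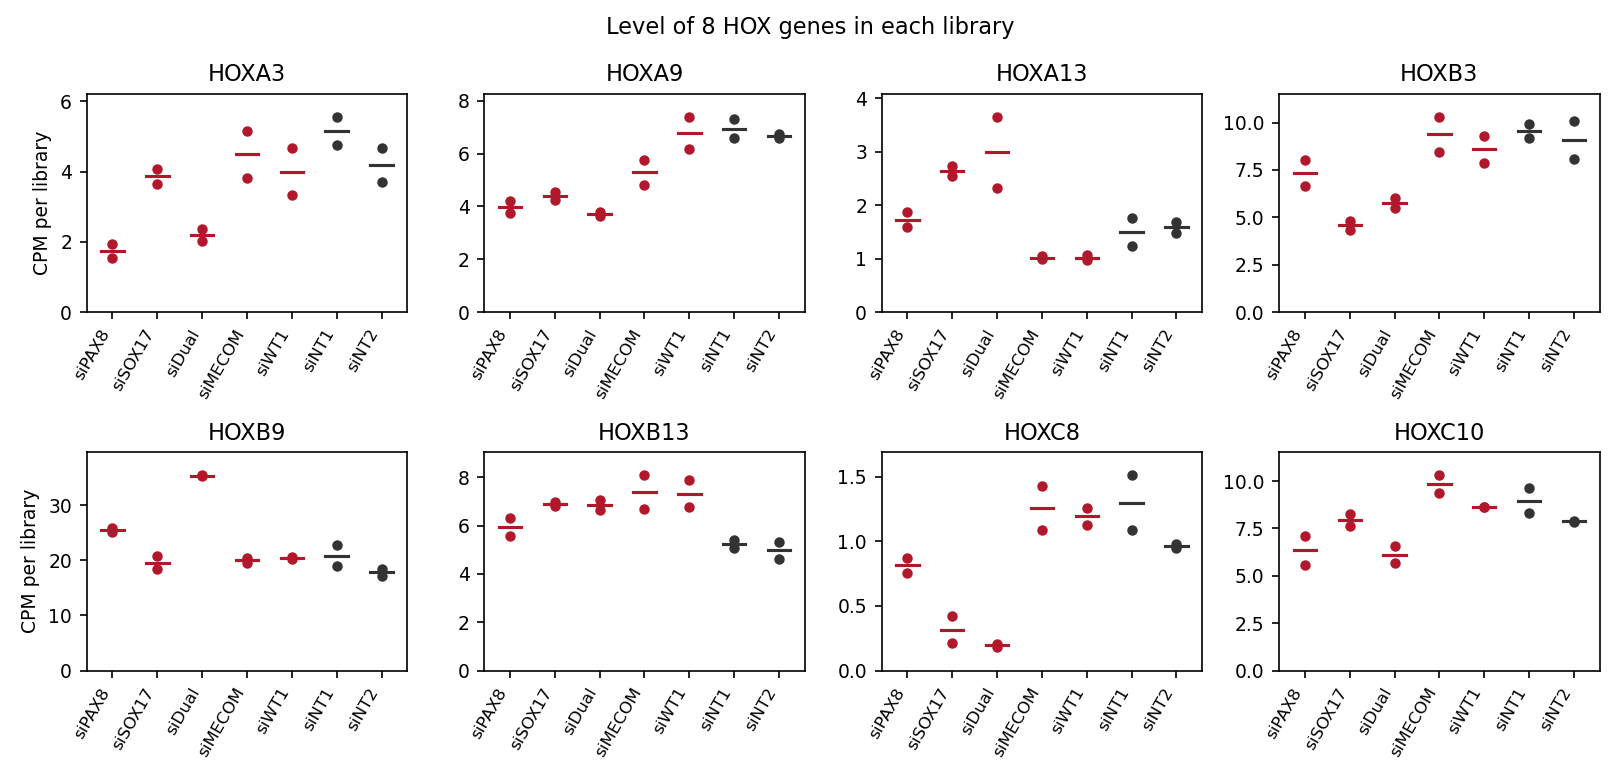
Level in each library (CPM, scaled by TMM) of 8 HOX genes, with knockdown libraries in red and control libraries in black, and a bar at each group mean. HOXA3 is lowest with siPAX8 and siDual, HOXB9 is highest with siDual at 35.3 and 35.4 CPM, and HOXC8 is lowest with siSOX17 and siDual.

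In HOXB, the genes from HOXB2 to HOXB8 were lower and HOXB9 and HOXB13 higher with the PAX8 and SOX17 pools wherever they were called. Of the 9 genes that passed, 5 were lower with siPAX8, 7 with siSOX17 and 6 with siDual, and 1, 1 and 2 were higher. With siMECOM 1 was higher and 1 lower, and with siWT1 2 were higher and 2 lower. The shares called lower with siPAX8, siSOX17 and siDual were 55.6%, 77.8% and 66.7%, against 25.4%, 25.5% and 27.3% of all genes. With siMECOM 11.1% were higher and 11.1% lower, near the 16.5% and 16.1% of all genes. With siWT1 22.2% were higher and 22.2% lower, near the 17.7% and 19.8% of all genes. The summed level was 79.3 ± 0.0338 CPM with siPAX8, 66.2 ± 1.89 with siSOX17, 85.9 ± 2.98 with siDual, 80.7 ± 0.441 with siMECOM and 83.3 ± 8.30 with siWT1, against 85.8 ± 4.43 in the controls.

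HOXB2 (ENSG00000173917.10, chr17:48540894-48544989), a hindbrain gene, had 10.6 and 11.9 CPM with siPAX8, 8.21 and 8.22 with siSOX17, 8.97 and 8.87 with siDual, 11.0 and 11.1 with siMECOM, and 10.7 and 13.7 with siWT1, against 16.1 and 17.0 with siNT1 and 15.8 and 16.2 with siNT2. All 10 knockdown libraries lay below every control. It fell 1.45-fold with siPAX8 (edgeR adjusted p = 1.49e-04), 1.98-fold with siSOX17 (1.90e-07), 1.83-fold with siDual (6.69e-07), 1.47-fold with siMECOM (2.31e-04) and 1.34-fold with siWT1 (0.00228). The siWT1 call was lost without siWT1 replicate 1 (adjusted p = 0.0902). The antisense HOXB-AS1 shares 3.72% of its exon bases.

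HOXB3 (ENSG00000120093.11, chr17:48548870-48604912), which acts in the hindbrain and pharyngeal organs, followed the SOX17 pool, where its paralog HOXA3 followed the PAX8 pool. It had 6.65 and 8.02 CPM with siPAX8, 4.35 and 4.83 with siSOX17, 6.04 and 5.47 with siDual, 8.47 and 10.3 with siMECOM, and 7.87 and 9.31 with siWT1, against 9.19 and 9.91 with siNT1 and 10.1 and 8.08 with siNT2. The siPAX8, siSOX17 and siDual libraries lay below every control, the siSOX17 libraries lowest, and those of siMECOM and siWT1 overlapped the controls. It fell 2.03-fold with siSOX17 (log2 fold change -1.02, SE 0.14, edgeR adjusted p = 3.42e-06) and 1.62-fold with siDual (-0.70, SE 0.13, 1.47e-04). With siPAX8 it was 1.27-fold lower (-0.35, SE 0.12, 0.0260), a call lost without siPAX8 replicate 1 (0.283), siNT1 replicate 2 (0.0645) or siNT2 replicate 1 (0.0977). HOXB3 was 1.6-fold higher with siPAX8 than with siSOX17 (adjusted p = 0.00173). Its exons share 13.2% of their bases with other genes, among them HOXB4 and HOXB6.

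HOXB9 (ENSG00000170689.9, chr17:48621159-48626356), the HOX gene with the most counts and one of the thoracic group, was highest when both pools were given. It had 25.9 and 25.1 CPM with siPAX8, 18.4 and 20.8 with siSOX17, 35.4 and 35.3 with siDual, 20.4 and 19.6 with siMECOM, and 20.6 and 20.3 with siWT1, against 18.9 and 22.8 with siNT1 and 17.2 and 18.4 with siNT2. The siPAX8 and siDual libraries lay above every control, and the other knockdowns overlapped the controls. It rose 1.33-fold with siPAX8 (log2 fold change 0.41, SE 0.08, edgeR adjusted p = 3.72e-04) and 1.83-fold with siDual (0.88, SE 0.08, 2.33e-08), and was 1.02-fold the control level with siSOX17 (adjusted p = 0.825). No exon of another gene overlaps HOXB9.

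HOXB13 (ENSG00000159184.7, chr17:48724763-48729178), the posterior gene known from prostate, lies apart from the rest of its cluster. It had 6.31 and 5.59 CPM with siPAX8, 6.82 and 7.0 with siSOX17, 7.08 and 6.66 with siDual, 8.08 and 6.68 with siMECOM, and 6.76 and 7.87 with siWT1, against 5.42 and 5.06 with siNT1 and 4.63 and 5.32 with siNT2. All 10 knockdown libraries lay above every control. It rose 1.35-fold with siSOX17 (edgeR adjusted p = 0.00415), 1.35-fold with siDual (0.00423), 1.44-fold with siMECOM (0.00138) and 1.43-fold with siWT1 (0.00131), and was 1.17-fold the control level with siPAX8 (0.123). The siMECOM call was lost without siMECOM replicate 1 (0.0613).

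Of the central HOXB genes, each was called lower with siSOX17. HOXB6 fell 1.42-fold with siPAX8 (edgeR adjusted p = 0.0153), 1.84-fold with siSOX17 (3.97e-04) and 1.58-fold with siDual (0.00309), and HOXB8 fell 1.41-fold with siSOX17 (0.00376). HOXB7 fell 1.34-fold with siPAX8 (0.00425), 1.24-fold with siSOX17 (0.0291), 1.22-fold with siDual (0.0388) and 1.23-fold with siWT1 (0.0421). HOXB5 fell 1.5-fold with siSOX17 (0.0460) and 1.54-fold with siDual (0.0309). HOXB4, a gene that expands blood stem cells when overexpressed, fell 1.18-fold with siPAX8 (0.0441), 1.24-fold with siSOX17 (0.0137) and 1.19-fold with siDual (0.0413), and rose 1.22-fold with siWT1 (0.0208). Exons of other genes, among them HOXB3, cover 32.9% of those of HOXB6. DESeq2 did not call HOXB5 with siSOX17 (adjusted p = 0.112) or siDual (0.0823), or HOXB4 with siPAX8 (0.0671) or siDual (0.0647). It also did not call HOXB7 with siDual (0.0578) or siWT1 (0.0615). Of the edgeR calls of these central genes, the siSOX17 call of HOXB6 was kept in every setting. Each of the others was lost without a library of its own group: with siPAX8, HOXB6 without replicate 2 (adjusted p = 0.162), HOXB7 without replicate 2 (0.0955) and HOXB4 without replicate 1 (0.208). With siSOX17 this was HOXB8 without replicate 1 (0.0546), HOXB7 without replicate 2 (0.484), HOXB5 without replicate 2 (0.391) and HOXB4 without replicate 1 (0.142). With siDual it was HOXB6 (0.0697), HOXB7 (0.169), HOXB5 (0.374) and HOXB4 (0.166) without replicate 2, and with siWT1 HOXB7 without replicate 1 (0.248) and HOXB4 without replicate 2 (0.410). Leaving out a control library also ended calls of HOXB4, HOXB5, HOXB6 and HOXB7, at adjusted p between 0.0511 and 0.108.

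In HOXC, fewer genes were called, and the summed level was lower with the PAX8 and SOX17 pools and higher with siMECOM and siWT1. The summed level was 13.8 ± 0.685 CPM with siPAX8, 14.7 ± 0.633 with siSOX17, 13.3 ± 0.435 with siDual, 22.3 ± 1.03 with siMECOM and 20.2 ± 0.306 with siWT1, against 17.6 ± 0.639 in the controls, and no knockdown library overlapped the controls in this sum, which was not tested. Of the 8 genes that passed, 2 were lower with siPAX8, 4 with siSOX17 and 3 with siDual, 1 was higher with siDual, 2 were higher with siMECOM and 3 with siWT1. None was higher with siPAX8 or siSOX17, and none lower with siMECOM or siWT1. The shares called lower were 25.0% with siPAX8, 50% with siSOX17 and 37.5% with siDual, where 25.4%, 25.5% and 27.3% of all genes were lower, so the siPAX8 share stood at the background. The shares called higher were 25.0% with siMECOM and 37.5% with siWT1, where 16.5% and 17.7% of all genes were higher.

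HOXC8 (ENSG00000037965.5, chr12:54009106-54012362, plus strand), a thoracic gene, followed the SOX17 pool. It had 0.871 and 0.758 CPM with siPAX8, 0.423 and 0.212 with siSOX17, 0.186 and 0.203 with siDual, 1.43 and 1.09 with siMECOM, and 1.26 and 1.13 with siWT1, against 1.51 and 1.09 with siNT1 and 0.982 and 0.946 with siNT2. The siPAX8 libraries lay just below every control, the siSOX17 and siDual libraries far below, and those of siMECOM and siWT1 overlapped the controls. It fell 3.46-fold with siSOX17 (log2 fold change -1.79, SE 0.30, edgeR adjusted p = 5.12e-05) and 5.66-fold with siDual (-2.5, SE 0.33, 2.64e-06), on 7 to 66 counts per library, and both calls were kept in every setting. With siPAX8 the log2 fold change was -0.45 (SE 0.24, 0.121). HOXC8 was 4.14-fold lower with siDual than with siPAX8 (6.46e-04), and its difference between siDual and siSOX17 was not past the threshold (-0.71, SE 0.46, 0.351).

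HOXC10 (ENSG00000180818.4, chr12:53985065-53990279), a lumbar and hindlimb gene, was the most abundant of the cluster. It had 7.11 and 5.59 CPM with siPAX8, 7.64 and 8.28 with siSOX17, 6.55 and 5.67 with siDual, 10.3 and 9.37 with siMECOM, and 8.63 and 8.62 with siWT1, against 8.32 and 9.63 with siNT1 and 7.92 and 7.86 with siNT2. The siPAX8 and siDual libraries lay below every control and the rest overlapped them. It fell 1.32-fold with siPAX8 (log2 fold change -0.41, SE 0.12, edgeR adjusted p = 0.00615) and 1.38-fold with siDual (-0.47, SE 0.12, 0.00222). The siPAX8 call was lost without siPAX8 replicate 2 (0.178) and against siNT2 alone (0.0610), and the siDual call without siDual replicate 2 (0.0609).

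HOXC9 (ENSG00000180806.4, chr12:53994895-54003337) had 1.76 and 1.54 CPM with siPAX8, 0.970 and 1.19 with siSOX17, 1.28 and 1.53 with siDual, 3.13 and 2.98 with siMECOM, and 2.84 and 2.97 with siWT1, against 1.81 and 1.54 with siNT1 and 2.40 and 1.74 with siNT2. It was 1.73-fold lower with siSOX17 (edgeR adjusted p = 0.00246, and 0.0525 without siSOX17 replicate 1) and rose 1.64-fold with siMECOM (0.00202) and 1.56-fold with siWT1 (0.00381, and 0.0551 against siNT2 alone). The siMECOM and siWT1 libraries lay above every control, the siSOX17 and siDual libraries below, and those of siPAX8 overlapped the controls. Its neighbour HOXC6 rose 1.52-fold with siMECOM (0.00223), and HOXC4 rose 1.58-fold with siWT1 (0.00370) and was 1.52-fold lower with siPAX8 (0.0129, and 0.0959 without siPAX8 replicate 1 or 0.0528 without replicate 2). HOXC5 had 1 to 29 counts per library: 1 and 4 with siSOX17, 3 and 3 with siDual, and 29 and 22 with siWT1, against 7, 17, 13 and 10 in the controls. It was lower with siSOX17 (0.0103, and 0.177 without siSOX17 replicate 1) and siDual (0.0131, and 0.108 without siDual replicate 2) and higher with siWT1 (0.0342, and 0.258 without siWT1 replicate 1). Its calls were also lost without siNT1 replicate 2 with siSOX17 (0.0527) and siDual (0.0668), without siDual replicate 1 (0.0595), and with siWT1 without siWT1 replicate 2 (0.0628), siNT1 replicate 1 (0.125) or siNT2 replicate 1 (0.0612) or 2 (0.0839). A noncoding row of the same symbol covers 59.9% of its exon bases. DESeq2 did not call HOXC5 with siDual (adjusted p = 0.0572) or siWT1 (0.180). It also did not call HOXC4 with siPAX8 (0.0515) or HOXC11 with siSOX17 (0.0734). HOXC11 was 2.92-fold lower with siSOX17 on 2 to 15 counts per library (0.0131, and 0.17 without siSOX17 replicate 2), and HOXC13 was 1.58-fold higher with siDual (0.0133, and 0.286 without siDual replicate 2).

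By position rather than cluster, calls were counted for the 4 genes numbered 2 and 3, the 13 central genes (4 to 8) and the 10 posterior genes (from 9 up) that passed. With siPAX8, 4 genes numbered 2 and 3 were lower and 0 higher, 6 central genes were lower and 0 higher, and 3 posterior genes were lower and 1 higher. With siSOX17 the counts were 3 lower and 0 higher, 9 lower and 0 higher, and 5 lower and 2 higher. With siDual they were 4 lower and 0 higher, 9 lower and 0 higher, and 3 lower and 4 higher. Of the genes numbered 2 and 3, HOXB2 was lower with siMECOM, and HOXA2 and HOXB2 with siWT1. With siMECOM 1 central gene was higher and 0 lower, and 2 posterior genes were higher and 2 lower. With siWT1 4 central genes were higher and 2 lower, and 2 posterior genes were higher and 1 lower. The posterior genes called higher with siPAX8, siSOX17 or siDual came from HOXA13, HOXB9, HOXB13 and HOXC13. Of the central genes 46.2%, 69.2% and 69.2% were lower with siPAX8, siSOX17 and siDual, where 25.4%, 25.5% and 27.3% of all genes were. Of the posterior genes 30% were lower with siPAX8 and with siDual, near the background, and 50% with siSOX17. With siDual 40% of the posterior genes were higher, where 28.9% of all genes were. Paralogs did not move as a set: with siDual the log2 fold change of HOXA9 was -0.88, of HOXB9 0.88 and of HOXC9 -0.40, and with siMECOM that of HOXA13 was -0.59, of HOXB13 0.53 and of HOXC13 -0.03. No test of the position classes was made.

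The knockdowns were also compared with each other. Between siDual and siPAX8, 2 HOX genes (HOXA13 and HOXB9) were higher with siDual and 1 (HOXC8) lower, where 11.0% of all genes were higher and 8.55% lower. Between siDual and siSOX17, 1 (HOXB9) was higher with siDual and 2 lower, among them HOXA3, against 7.85% and 7.82% of all genes. Between siPAX8 and siSOX17, 6 were higher with siPAX8 (HOXA5, HOXB2, HOXB3, HOXB9, HOXC8 and HOXC9) and 4 lower, among them HOXA3, HOXA13 and HOXC4, against 17.6% and 19.8% of all genes. These shares of the 28 were at or under the background except for 21.4% higher with siPAX8 than with siSOX17.

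The siMECOM libraries held more HOX RNA than those of the PAX8 and SOX17 pools at many genes. Against siPAX8, 13 HOX genes were higher with siMECOM and 2 lower, where 24.0% of all genes were higher and 23.1% lower. Against siSOX17, 15 were higher and 1 lower, where 24.5% of all genes were higher and 23.9% lower. Against siDual, 18 were higher and 3 lower, where 25.3% of all genes were higher and 24.9% lower. HOXA13 was the gene lower with siMECOM in all 3 of these tests. The siWT1 libraries gave 11 higher and 4 lower against siPAX8 (27.8% and 29.5% of all genes), 13 higher and 3 lower against siSOX17 (28.0% and 29.8%), and 16 higher and 5 lower against siDual (29.6% and 31.2%). Between siWT1 and siMECOM, 2 were higher with siWT1 (HOXA9 and HOXB4) and 4 lower, among them HOXA2, HOXA4 and HOXB7, where 21.3% of all genes were higher and 23.9% lower.

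Whether the change with both pools equalled the sum of the changes with each was tested as an interaction, on the log2 scale. The change with siDual was above the sum, past the threshold, for 3 HOX genes, or 10.7% of the 28 that passed the filter. Among all genes 12.0% were above and 13.0% below, so this count by itself says nothing particular about HOX genes. The median difference of siDual from the sum was 0.45 over the 28 genes, against 0.01 over all genes tested. The 28 differences rest on the same libraries, and their median was not tested. HOXB2 changed by -0.87 with siDual, against -1.52 for the sum (adjusted p = 0.00412), and HOXB3 by -0.70, against -1.37 (edgeR adjusted p = 0.0189). For HOXB2 and HOXB3 the siDual change was smaller than the sum. HOXB9 changed by 0.88 with siDual, against 0.43 for the sum (0.0149), a larger change with siDual than the sum. The HOXB3 call was lost without replicate 1 of siDual (0.0781), siPAX8 (0.0927) or siSOX17 (0.0824), and the HOXB9 call without siPAX8 replicate 2 (0.0589) or siSOX17 replicate 1 (0.0924). PAX8 itself stood at 25.2% of the control level with siDual and 17.4% with siPAX8, and SOX17 at 15.2% with siDual and 13.0% with siSOX17, and the part of these depths in the interaction was not tested.

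**Figure D4:**
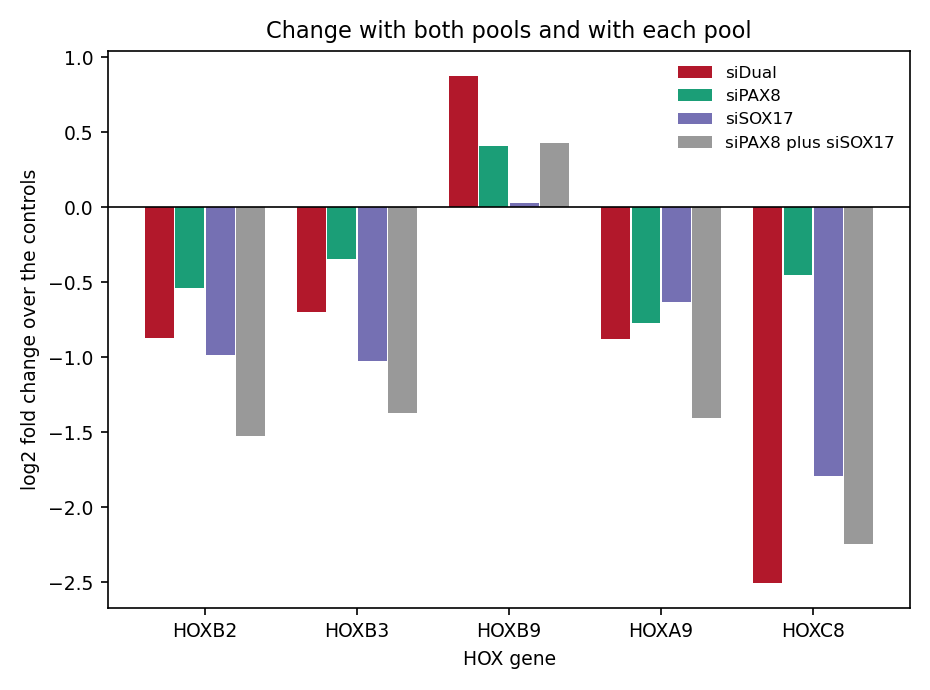
Log2 fold change against the controls of 5 HOX genes with siDual, siPAX8 and siSOX17, and the sum of the changes with siPAX8 and siSOX17 (grey). The red siDual bar is shorter than the grey bar for HOXB2, HOXB3 and HOXA9, longer for HOXB9 and close to it for HOXC8; the difference was past the threshold for HOXB2, HOXB3 and HOXB9.

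Transcripts inside the clusters other than the HOX genes, mostly antisense RNAs, were listed beside them, and 12 of 23 were tested. With siPAX8 0 were higher and 7 lower (median log2 fold change -0.41), with siSOX17 0 and 6 (-0.46), with siDual 1 and 7 (-0.58), with siMECOM 1 and 0 (0.19), and with siWT1 0 and 3 (-0.21). The shares called lower were 58.3% with siPAX8, 50% with siSOX17, 58.3% with siDual and 25.0% with siWT1, where 25.4%, 25.5%, 27.3% and 19.8% of all genes were lower. HOXA-AS2, which shares exon bases with HOXA3 and HOXA4, averaged 1.39 ± 0.137 CPM with siPAX8 and 2.62 ± 0.217 CPM in the controls, and was 1.93 ± 0.493 CPM with siWT1 (edgeR adjusted p = 2.68e-04 and 0.0430). HOXA11-AS averaged 0.293 ± 0.0774 CPM with siSOX17 and 0.389 ± 0.0229 with siDual, against 0.745 ± 0.128 in the controls (0.00121 and 0.00942). HOXB-AS1 was lower in 4 knockdowns: it averaged 4.85 ± 0.288 CPM with siPAX8, 3.09 ± 0.0138 with siSOX17, 3.99 ± 0.679 with siDual and 4.64 ± 0.935 with siWT1, against 6.25 ± 0.201 in the controls (0.0255, 7.38e-06, 4.52e-04 and 0.0139). HAGLROS, at the silent HOXD cluster, averaged 0.0547 CPM with siPAX8, 0.0133 with siSOX17 and 0.0266 with siDual, against 0.189 ± 0.0605 in the controls, levels of a few counts. HOXC13-AS averaged 0.677 ± 0.506 CPM with siDual and 0.256 ± 0.0946 in the controls (0.00549), and HOXC-AS2 0.902 ± 0.185 CPM with siMECOM and 0.522 ± 0.0579 in the controls (0.0181).

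The partners of HOX proteins were mostly expressed, 7 of 9 being tested. Of these, 0 were higher and 2 lower with siPAX8 (median -0.02), 0 and 4 with siSOX17 (-0.41), 1 and 2 with siDual (-0.09), 3 and 2 with siMECOM (0.19), and 1 and 1 with siWT1 (-0.18). The share called lower was 28.6% with siPAX8 and with siDual, near the 25.4% and 27.3% of all genes, and 57.1% with siSOX17, where 25.5% of all genes were lower. With siMECOM 42.9% were higher and 28.6% lower, where 16.5% and 16.1% of all genes were. PBX2 averaged 18.8 ± 0.148 CPM with siSOX17 and 23.1 ± 2.78 with siDual, against 38.1 ± 1.65 in the controls (edgeR adjusted p = 6.27e-09 and 3.41e-07), and it differed less with siMECOM (30.4 ± 0.698, lower) and siWT1 (44.8 ± 1.08, higher). PKNOX1, a partner related to MEIS, averaged 18.2 ± 0.343 CPM with siPAX8, 25.1 ± 0.708 with siSOX17, 21.7 ± 0.738 with siDual and 28.4 ± 1.41 with siMECOM, against 34.0 ± 1.85 in the controls (7.35e-09, 5.64e-05, 4.88e-07 and 0.00989). MEIS3 averaged 2.11 ± 0.403 CPM with siMECOM and 0.255 ± 0.0511 in the controls (1.08e-07). PBX3 averaged 11.1 ± 2.04 CPM with siDual and 12.6 ± 1.02 with siMECOM, against 9.05 ± 0.422 in the controls (0.0361 and 0.00323), and PBX4 0.83 ± 0.510 CPM with siPAX8 and 1.45 ± 0.185 in the controls (0.0257).

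Among Polycomb and Trithorax genes, the keepers of the silent and active states of HOX clusters, 35 of 36 were tested. With siPAX8 4 were higher and 21 lower (median -0.32), with siSOX17 1 and 18 (-0.22), with siDual 4 and 25 (-0.32), with siMECOM 3 and 7 (-0.02), and with siWT1 9 and 7 (0.03). The shares called lower were 60% with siPAX8, 51.4% with siSOX17 and 71.4% with siDual, where 25.4%, 25.5% and 27.3% of all genes were lower, and 20% with both siMECOM and siWT1, near the 16.1% and 19.8% of all genes. CBX2, a Polycomb reader of methylated histone H3, averaged 19.8 ± 0.966 CPM with siPAX8, 27.8 ± 3.81 with siSOX17, 15.6 ± 0.607 with siDual and 119 ± 8.80 with siWT1, against 79.5 ± 4.19 in the controls (edgeR adjusted p = 7.37e-13, 2.74e-11, 1.08e-13 and 5.17e-06). PSIP1, which tethers the MLL complex to chromatin, averaged 11.9 ± 0.949 CPM with siPAX8, 16.4 ± 0.128 with siSOX17, 12.4 ± 1.21 with siDual and 30.5 ± 1.6 with siMECOM, against 43.4 ± 2.80 in the controls (3.21e-12, 1.44e-10, 4.38e-12 and 8.49e-05). KDM6A, a demethylase that removes the Polycomb mark, averaged 72.5 ± 5.54 CPM with siPAX8, 52.9 ± 3.10 with siDual, 39 ± 2.78 with siMECOM and 57.7 ± 5.66 with siWT1, against 46.1 ± 2.79 in the controls (9.46e-07, 0.0413, 0.0297 and 0.00330), so it was lower with siMECOM and higher in the other 3. JARID2, a Polycomb subunit, averaged 69.6 ± 7.2 CPM with siPAX8 and 49.4 ± 2.82 in the controls (1.55e-05). KMT2C, a histone methyltransferase, averaged 105 ± 15.3 CPM with siSOX17 and 77.9 ± 7.69 in the controls (0.00105).

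Further genes of this list also differed, among them RNF2, PCGF2 and BMI1 of the Polycomb ubiquitin ligase. RNF2 averaged 24.9 ± 1.97 CPM with siPAX8, 25.4 ± 1.28 with siDual and 50 ± 0.860 with siMECOM, against 29 ± 1.87 in the controls (edgeR adjusted p = 0.0270, 0.0499 and 2.00e-07), so it was higher with siMECOM and lower in the other two. PCGF2 was lower in 4 knockdowns, at 20.7 ± 1.05 CPM with siSOX17, 22.2 ± 2.82 with siDual, 37.5 ± 1.97 with siMECOM and 42.2 ± 2.99 with siWT1, against 53.3 ± 3.88 in the controls (4.92e-10, 8.73e-10, 1.65e-04 and 0.00446). BMI1 averaged 36.1 ± 2.38 CPM with siPAX8 and 37.2 ± 2.5 with siDual, against 31.9 ± 1.76 in the controls (0.0468 and 0.0138). DOT1L, a methyltransferase of active genes, was lower with siSOX17 (30.4 ± 5.02 CPM) and siDual (30.3 ± 2.95) and higher with siMECOM (47.9 ± 2.75), against 39.6 ± 1.96 in the controls (0.00290, 0.00228 and 0.0293). EED, the core subunit that reads the Polycomb mark, was lower with siPAX8 (16.8 ± 0.138 CPM), siSOX17 (18.1 ± 2.29) and siDual (16.9 ± 0.331) and higher with siWT1 (33.0 ± 1.76), against 21.0 ± 0.946 in the controls (0.00296, 0.0364, 0.00344 and 2.92e-06). PHF19, which recruits the complex that holds EED, was lower in all 5 knockdowns. PHF19 averaged 26.7 ± 0.246 CPM with siPAX8, 31.9 ± 2.23 with siSOX17, 28.6 ± 0.351 with siDual, 40.1 ± 1.57 with siMECOM and 24.8 ± 1.51 with siWT1, against 54.5 ± 4.22 in the controls (1.53e-09, 8.66e-08, 5.91e-09, 1.47e-04 and 1.71e-09). PHC2 averaged 49.8 ± 0.0613 CPM with siPAX8 and 46.4 ± 3.41 with siWT1, against 59.0 ± 2.16 in the controls (0.00518 and 5.24e-04).

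Of genes of retinoid signalling, together with CDX and the homeobox genes most related to HOX, 19 of 28 were tested. With siPAX8 6 were higher and 6 lower (median -0.06), with siSOX17 1 and 9 (-0.35), with siDual 5 and 6 (-0.07), with siMECOM 4 and 2 (0.05), and with siWT1 7 and 5 (0.29). With siPAX8 31.6% were higher and 31.6% lower, near the 26.9% and 25.4% of all genes, and with siDual 26.3% and 31.6%, near the 28.9% and 27.3% of all genes. With siSOX17 47.4% were lower, where 25.5% of all genes were, and with siWT1 36.8% were higher, where 17.7% of all genes were. CYP26A1, the enzyme that degrades retinoic acid, averaged 0.0754 ± 0.0436 CPM with siPAX8, 0.142 ± 0.0246 with siSOX17, 0.102 ± 0.0811 with siDual, 4.55 ± 0.675 with siMECOM and 0.736 ± 0.151 with siWT1, against 0.423 ± 0.0775 in the controls (edgeR adjusted p = 2.60e-04, 0.00524, 8.37e-04, 5.40e-10 and 0.0282). CYP26C1, of the same family, averaged 0.215 ± 0.146 CPM with siPAX8, 0.421 ± 0.108 with siSOX17 and 0.374 ± 0.148 with siDual, against 0.905 ± 0.168 in the controls (8.36e-05, 0.00862 and 0.00259). ALDH1A2, which makes retinoic acid, was higher with siPAX8 (0.533 ± 0.00273 CPM), siSOX17 (0.742 ± 0.111) and siDual (1.01 ± 0.343) and lower with siWT1 (0.134 ± 0.0275), against 0.306 ± 0.0476 in the controls (0.0386, 0.00154, 4.53e-05 and 0.0313). ALDH1A3, an enzyme of the same step, averaged 3.73 ± 0.0191 CPM with siPAX8, 3.88 ± 0.554 with siMECOM and 5.06 ± 0.684 with siWT1, against 2.35 ± 0.780 in the controls (0.00212, 0.00211 and 2.11e-05), and ALDH1A1 averaged 0.430 ± 0.120 with siWT1 and 0.17 ± 0.0836 in the controls (0.0248).

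CRABP2, which carries retinoic acid to its receptor, was higher with siPAX8 (211 ± 39.2 CPM) and siDual (116 ± 5.13) and lower with siSOX17 (44.5 ± 0.00634), against 82.7 ± 6.24 in the controls (edgeR adjusted p = 2.05e-10, 1.29e-04 and 2.94e-07). RARG, a retinoic acid receptor, averaged 16.2 ± 0.971 CPM with siPAX8, 14.8 ± 0.747 with siSOX17, 15.5 ± 2.49 with siDual, 15.2 ± 0.0818 with siMECOM and 39.7 ± 1.44 with siWT1, against 32.5 ± 1.61 in the controls (1.80e-08, 5.02e-09, 8.02e-09, 2.07e-08 and 0.00979), so it was lower in 4 knockdowns and higher with siWT1. STRA6, the retinol transporter, averaged 3.17 ± 0.648 with siMECOM and 2.48 ± 1.02 with siWT1, against 6.48 ± 0.996 in the controls (3.91e-04 and 1.84e-05). Of the related homeobox genes, MEOX1 averaged 43.8 ± 3.97 CPM with siPAX8, 39.2 ± 3.72 with siSOX17, 20.9 ± 1.89 with siDual and 20 ± 2.27 with siWT1, against 55.8 ± 2.52 in the controls (0.00209, 6.69e-05, 1.93e-10 and 4.62e-10). MNX1 was lower with siSOX17 (0.644 ± 0.102 CPM) and siDual (1.06 ± 0.00490) and higher with siWT1 (2.94 ± 0.308), against 1.90 ± 0.315 in the controls (9.07e-06, 0.00156 and 0.00402). PDX1 averaged 0.749 ± 0.0822 CPM with siPAX8 and 0.427 ± 0.00122 with siDual, against 0.178 ± 0.0612 in the controls (9.65e-05 and 0.0157). In all these lists the SD is over 2 libraries for a knockdown and 4 for the controls, the counts are descriptions, and no list was tested as a set.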

How the data were processed

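Total RNA of 14 OVCAR4 libraries was prepared with a BGI protocol, per the labels' protocols. The authors deposited raw read counts per gene; STAR 2.5.1b, featureCounts 1.6.3 and hg38 are named in the submitters' processing notes, and the strand setting and the handling of reads over several genes are not given in the sources used here. Of 58219 identifiers, 57836 matched GENCODE 29, which gave symbols and exon overlaps. Counts were fitted with edgeR 4.0.16 in R 4.3.3 (filterByExpr with a minimum count of 10, TMM, quasi-likelihood test, 7 groups, 7 residual degrees of freedom), which tested 21032 genes, and calls were made at a Benjamini-Hochberg adjusted p under 0.05 across that whole table. The biological coefficient of variation was 7.57%. Levels of different genes were set side by side as TPM from the deposited gene lengths, and other levels are CPM. DESeq2 1.42.0 was an alternative, and the fitting was tested on simulated data.

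Members and lists were chosen with earlier results of these data known. Values in every library were given for HOX genes averaging at least 1 CPM and called with an absolute log2 fold change of at least 1 (HOXA3 and HOXB3), and for the highest member of a cluster with none (HOXC10 and HOXD9). HOXA2, HOXA9, HOXA10, HOXA13, HOXB2, HOXB9, HOXB13, HOXC5, HOXC8 and HOXC9 were added after their values were seen. Of each list, at most 2 called genes per direction and knockdown were named. Some items that these rules choose are not reported here. Alternatives were DESeq2, its size factors in edgeR, no filter, a minimum count of 30, either control pool alone, only the groups compared, a replicate block, and each library left out. Depths of 40832825 to 49803860 counts limit genes of a few counts.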

Additional observations from a re-analysis of the deposited data

Results flagged for a closer look

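Among the 4 control libraries, 1 of the 28 HOX genes that were checked for an outlying library stood out: HOXB6 had 3.73 CPM in siNT1 replicate 2, against 2.90 to 3.03 CPM in the other 3. Such a test marks about 1 in 20 groups by chance. Further, 3 HOX genes changed with the SOX17 pool to a different extent in the presence and absence of the PAX8 pool, by edgeR's interaction test: the log2 difference was 0.655 for HOXB2, 0.671 for HOXB3 and 0.443 for HOXB9. Both libraries of siDual showed the direction of each difference. These 3 genes were 10.7% of the 28 tested, where 12.0% of all genes were above the sum. Their count by itself therefore says nothing particular about HOX genes. The median log2 difference over the 28 was 0.45, against 0.01 over all genes, and was not tested.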

How the results depend on the processing

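Of 79 called results of single HOX genes, 41 kept their call under all 22 alternatives, 38 lost it under at least 1 and 0 changed sign. The counts of HOX genes called moved by over 1.5 times in several settings: siNT2 alone as control, the replicate block and some fits without 1 library. Against siNT2 alone, 1 was lower with siMECOM in place of 3, and 3 were higher with siWT1 in place of 6. Leaving out 1 library at a time gave 6 to 13 lower with siPAX8 (13 with all), 13 to 17 with siSOX17 (17), 8 to 17 with siDual (16), 1 to 4 with siMECOM (3) and 3 to 6 with siWT1 (6), 3 to 6 higher with siWT1 (6), and 2 to 4 above the sum in the interaction (3). DESeq2 called 10, 15, 12, 2 and 4 lower in the order siPAX8, siSOX17, siDual, siMECOM and siWT1. With the replicate number as a block, 6 HOX genes were above the sum in place of 3; the cause of these moves was not tested. Deviations of libraries with the same replicate number correlated between -0.02 and 0.16 over 21 pairs of groups, 7 of them over 0.1, so the numbers were not taken to pair the samples. Where leaving out a library left 1 in its group, that library was assumed to vary like the others. The 7 residual degrees of freedom and counts under about 30 limit HOXA2, HOXA6, HOXA11, HOXB5, HOXC5, HOXC8 and HOXC11.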
